A study of Mus musculus with 9 samples.

Results

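The EGR and NR4A transcription factors, the early response genes Ier2 and Ier3 and the serum response factor gene Srf were followed in whole mouse lung after contact with Aspergillus fumigatus. They were 10 genes of the 18984 listed per library, found by symbol (Egr1, Egr2, Egr3, Egr4, Nr4a1, Nr4a2, Nr4a3, Ier2, Ier3 and Srf). The members were chosen on their FPKM values in these libraries, with earlier results of the data in view. The values of the 10 genes are therefore given as a description, with differences and standard errors but without p-values.

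C57BL/6 mice, immunocompetent per the title of the series, had received hyphal fragments of the fungus, its conidia or normal saline (control) into the trachea, and lungs were taken 24 hours later. Each group had 3 libraries of poly(A) RNA, 9 in all. The labels do not say whether the 3 came from separate animals, so the spread between libraries may be technical. Dose and fungal strain are not given in the sources used here, and normal saline is the only control that was measured.

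Immediate early genes are switched on within minutes of a stimulus, without new protein synthesis, and their messengers are short-lived. In the usual scheme, the ERK kinases phosphorylate ternary complex factors of the ELK family, which sit with SRF on CArG boxes, the DNA element SRF binds. SRF with ELK drives Egr1, Ier2 and Srf itself, while SRF with the actin-sensing MRTF coactivators drives contractile and cytoskeletal genes. The EGR proteins are zinc finger factors restrained by the corepressors NAB1 and NAB2. The NR4A proteins are orphan nuclear receptors whose activity follows their abundance, and cAMP signalling through CREB is a classical inducer of them. In the lung these genes are known from injury, stretch, hypoxia and macrophage activation.

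FPKM values (fragments scaled to transcript length and to the mapped fragments of the library) were compared on the scale of log2(FPKM + 1). Adding 1 shrinks differences of genes with low values. The files hold no counts, so sequencing depth is unknown and no counting intervals were computed. The median gene had 3.6 to 4.05 FPKM in the hyphae, 5.21 to 6.05 in the conidia and 5.88 to 6.33 in the control libraries. The median log2 difference over all genes tested was -0.37 for hyphae against control, -0.07 for conidia against control and -0.29 for hyphae against conidia. Differences were therefore also computed after each library had been divided by a median-of-ratios factor, and these are called rescaled. Rescaling raised the differences of hyphae against both other groups for all 10 genes, by less where a group had low FPKM. Hyphae against control went from -0.57 to -0.31 for Egr3 and from 3.29 to 3.72 for Egr1. The sign of a difference smaller than the shift depends on the choice.

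Marker genes of other cell types differed between the libraries. The summed FPKM of 11 neutrophil markers was 674, 1921 and 5978 in hyphae replicates 1, 2 and 3, 3106, 868 and 2229 in conidia replicates 1, 2 and 3, and 135 to 157 in control libraries, with Ly6g at 0 in control replicate 1. Of these markers 9 were called higher in hyphae than in control (limma, adjusted p under 0.05) with either scaling. Of all genes 14.9% were called higher as deposited and 30.0% rescaled. In conidia against control 3 were called higher as deposited and none rescaled, beside 0.596% and 0.298% of all genes. There 9 of the 11 had an unadjusted p under 0.05 with either scaling, and the median log2 difference of the 11 was 2.36 as deposited and 2.38 rescaled. S100a8 (means of 893 FPKM in hyphae and 759 in conidia) and S100a9 (998 and 902) weighed most on the sums of these groups. In hyphae against conidia limma called 2 of the 11 higher and 1 lower, Csf3r, with means of 27.3 and 99.8. In conidia, Retnlg and Mmp8 were highest in replicate 3, and Camp and Ltf were lowest in replicate 1. The sum of 5 cardiac muscle markers was 1637 in hyphae replicate 3 and 1042 in control replicate 1, against 74.5 to 338 in the 7 other libraries. The sum of 5 adipose markers was highest in the same 2 libraries, at 352 in hyphae replicate 3 and 795 in control replicate 1, against 9.07 to 186 in the others. In whole lung, more cells of a type and more RNA per cell cannot be told apart.

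The 10 genes did not share 1 pattern across the groups. In hyphae against control, 5 genes had no overlap between groups and higher values in hyphae (Egr1, Egr4, Ier2, Ier3 and Srf), none had no overlap with lower values, and 5 overlapped. Among all 13761 genes tested, 17.3% had no overlap with higher values in hyphae and 53.4% with lower values. In conidia against control, 3 genes had no overlap and lower values in conidia (Nr4a1, Nr4a2 and Srf), and the other 7 overlapped. Of all genes 17.8% were lower without overlap in this comparison and 12.0% higher. In hyphae against conidia, 6 genes had no overlap and higher values in hyphae (Egr1, Egr4, Nr4a1, Ier2, Ier3 and Srf), beside 14.8% of all genes, and 45.1% of all genes were lower without overlap. These counts describe genes chosen with the values known, so nothing is read from them. All 10 genes passed the filter on low values, Egr4 only through its 3 hyphae libraries.

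The calls that follow come from the same values on which the genes were chosen, so they and their stability support nothing about the 10 genes. In the model fitted across all genes (limma, adjusted p under 0.05), 4 of the 10 were called higher in hyphae than in control as deposited and 7 after rescaling, where 14.9% and 30.0% of all genes were called higher. With all libraries none of the 10 was called lower, beside 50.0% of all genes as deposited and 29.3% rescaled, and calls in either direction made up 64.9% and 59.3% of all genes. In hyphae against conidia the number was 7 with either scaling, beside 12.7% of all genes called higher as deposited and 25.4% rescaled. Lower calls made up 42.5% of all genes as deposited and 25.4% rescaled, and calls in either direction 55.2% and 50.8%. In conidia against control limma called none of the 10, with 3 of them at an unadjusted p under 0.05, beside 0.690% of all genes called in either direction (0.596% higher, 0.0945% lower). Rescaled, these shares were 0.342%, 0.298% and 0.0436%, and again none of the 10 was called. With single libraries left out, 3 to 5 were called in hyphae against control, among them Nr4a2 as lower without hyphae replicate 1 and Egr3 as lower without hyphae replicate 3. The number called in hyphae against conidia was 3 without hyphae replicate 3, 4 without conidia replicate 2 and 5 to 7 otherwise, and Srf alone was called lower in conidia than in control without conidia replicate 2 or hyphae replicate 1. The comparisons share libraries, so these counts are not independent of each other.

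**Figure D1:**
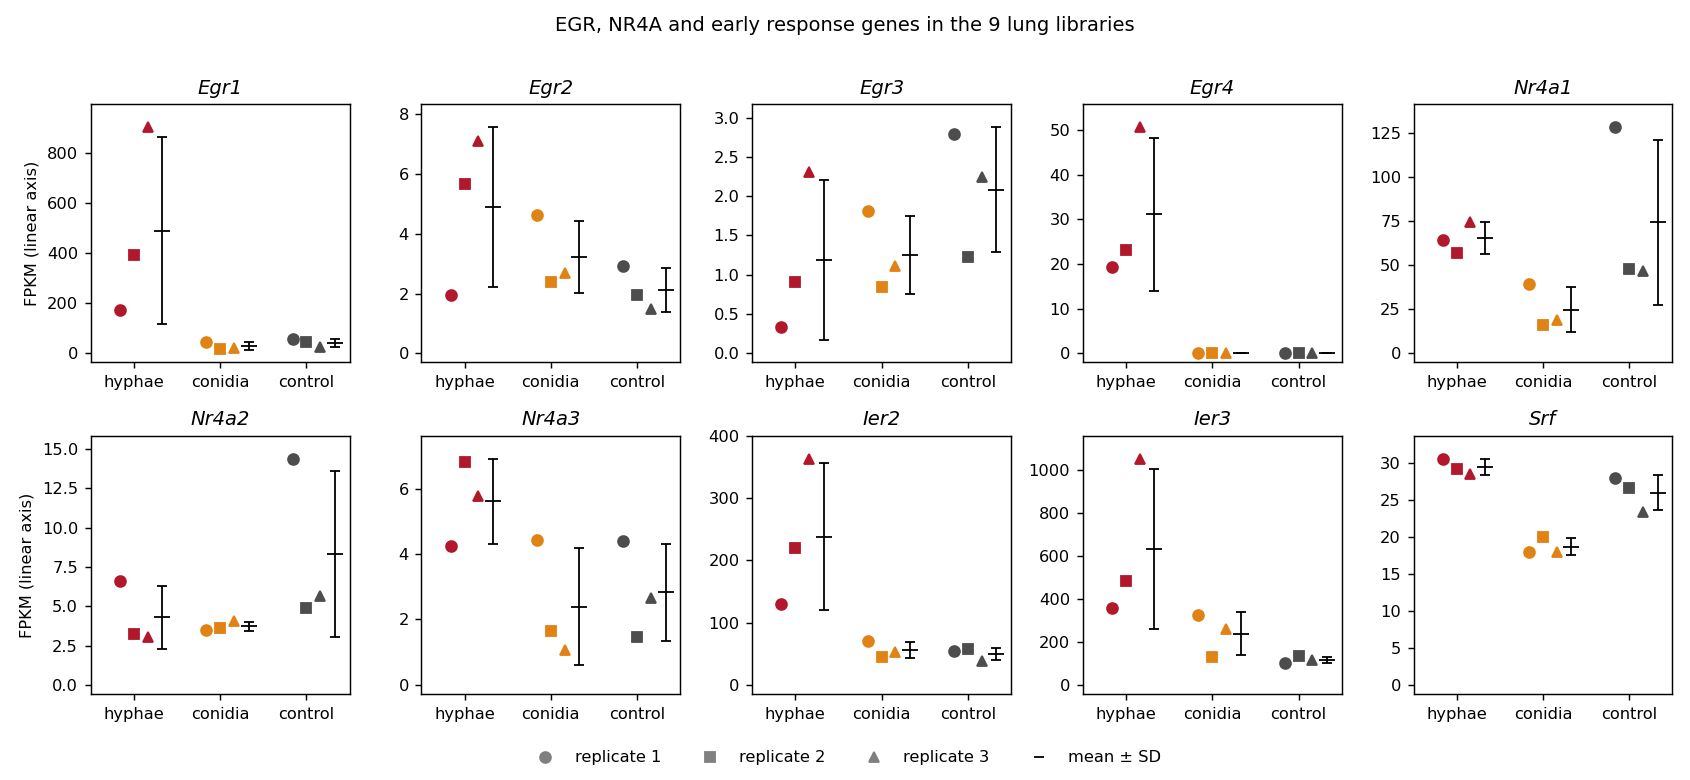
FPKM (linear axis) of the 10 genes in each library, with 1 panel per gene, groups along the x axis, 1 symbol per replicate and the mean ± SD beside them. The 3 hyphae libraries lie between 174 and 903 FPKM for Egr1 and between 19.4 and 50.7 for Egr4, above the conidia and control libraries, while Srf lies at 28.5 to 30.6 in hyphae, 18.0 to 20.0 in conidia and 23.4 to 28.0 in control.

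Egr1 (Entrez 13653), the most studied EGR factor, is an activator of growth factor, coagulation and inflammatory genes. It stood at 174, 394 and 903 FPKM in hyphae replicates 1, 2 and 3, at 45.6, 16.8 and 23.0 in conidia replicates 1, 2 and 3, and at 55.6, 44.7 and 24.5 in control replicates 1, 2 and 3. All hyphae libraries lay above all others, while conidia and control overlapped. The group means were 490.1 ± 374 FPKM in hyphae, 28.5 ± 15.2 in conidia and 41.6 ± 15.8 in control (SD, n = 3 each). The log2 difference of hyphae against control was 3.29 (SE 0.59; 3.72 rescaled), the 40th highest of 13761 genes, and that of hyphae against conidia was 3.87 (SE 0.59; 4.20 rescaled), the 4th highest. Conidia against control gave -0.58 (SE 0.59; -0.48 rescaled), a difference smaller than its standard error. The SD of the hyphae group was large because its highest library held 5.20 times the FPKM of its lowest, the widest such spread of the hyphae group after that of Egr3.

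Egr4 (Entrez 13656), an EGR factor otherwise known mainly from brain and testis, was nearly absent from saline lungs. It was listed at 19.4, 23.2 and 50.7 FPKM in hyphae replicates 1, 2 and 3, at 0.10, 0.02 and 0 in conidia replicates 1, 2 and 3, and at 0, 0.03 and 0 in control replicates 1, 2 and 3. No fold change is given, since control values were at or next to 0. The log2(FPKM + 1) difference of hyphae against control was 4.87 (SE 0.29; 5.10 rescaled), the 8th highest of all genes, and that against conidia was 4.83 (SE 0.29; 5.06 rescaled), the highest of all 13761. With 0.1 in place of 1 added before the logarithm these became 8.03 and 7.73. In hyphae lungs the mean of Egr4 exceeded that of 86.4% of the genes in the files, against 10.9% in conidia and 4.74% in control lungs.

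Egr2 and Egr3, known for roles in myelination and in the restraint of T cell activation, stayed at low levels in all groups. Egr2 (Entrez 13654) stood at 1.94, 5.65 and 7.11 FPKM in hyphae replicates 1, 2 and 3, at 4.61, 2.39 and 2.69 in conidia replicates 1, 2 and 3, and at 2.93, 1.95 and 1.47 in control replicates 1, 2 and 3. Hyphae replicate 1 lay within the control range and the groups overlapped, with log2 differences of 0.82 (SE 0.37; 1.15 rescaled) for hyphae and 0.43 (SE 0.37; 0.49 rescaled) for conidia, both against control. Egr3 (Entrez 13655) stood at 0.33, 0.91 and 2.31 FPKM in hyphae, 1.81, 0.85 and 1.11 in conidia and 2.79, 1.22 and 2.24 in control libraries, in the order of replicates 1, 2 and 3. Its mean was lower in hyphae (1.18 ± 1.02) than in control (2.08 ± 0.80; SD, n = 3 each), with overlapping libraries and a log2 difference of -0.57 (SE 0.34; -0.31 rescaled). Between hyphae and conidia its difference changed sign with the scaling, at -0.13 as deposited and 0.04 rescaled.

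The EGR genes thus differed from each other more than the family total shows. Per length of transcript, Egr1 made up 88.9 to 93.8% of the summed FPKM of the 4 EGR genes in hyphae libraries, 83.7 to 87.5% in conidia and 86.8 to 93.3% in control libraries. The sum was 195 to 963 FPKM in hyphae, 20.0 to 52.1 in conidia and 28.2 to 61.3 in control libraries. Within the hyphae group all 4 were lowest in replicate 1 and highest in replicate 3, the libraries with the lowest and highest sums of neutrophil markers. In conidia, replicate 1 held the highest neutrophil sum and the highest value of all 4 EGR genes. The part of neutrophil number in these values was not tested.

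The promoter window of Egr4 is shown with the core TGACG of the cAMP response element in capitals (read on the other strand as CGTCA), the element by which CREB is known to act on immediate early genes. Windows of 250 bases before to 50 bases after the start site were taken from RefSeq (GRCm38.p6, a build other than the mm9 of the files), which gave one for 7 of the 10 genes. Egr1, Egr3 and Ier2 had no window, so no motif was searched in them. The window of Egr4 spans chr6:85513540-85513839 on the minus strand and holds 2 matches, 177 and 109 bases before the start site. Of all 32851 windows, some of which overlap within a gene, 20.8% hold at least 1 match and 5.01% at least 2.
Egr4: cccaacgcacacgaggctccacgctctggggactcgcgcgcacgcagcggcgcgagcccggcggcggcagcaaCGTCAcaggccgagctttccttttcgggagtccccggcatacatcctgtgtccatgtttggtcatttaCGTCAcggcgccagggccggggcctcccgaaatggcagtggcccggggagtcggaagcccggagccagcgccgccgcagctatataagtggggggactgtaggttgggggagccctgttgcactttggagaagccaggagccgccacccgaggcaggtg

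Nr4a1 (Entrez 15370), also called Nur77, restrains inflammatory genes in macrophages and is needed by patrolling monocytes. Of the 10 genes it had the lowest difference of conidia against control. It stood at 64.3, 57.0 and 74.7 FPKM in hyphae replicates 1, 2 and 3, at 39.3, 15.8 and 19.1 in conidia replicates 1, 2 and 3, and at 128, 47.6 and 46.7 in control replicates 1, 2 and 3. All conidia libraries lay below all control and all hyphae libraries, whereas hyphae lay inside the control range. The log2 difference of conidia against control was -1.49 (SE 0.42; -1.39 rescaled), the 21st lowest of 13761 genes. Hyphae against conidia gave 1.46 (SE 0.42; 1.79 rescaled), and hyphae against control gave -0.02 as deposited and 0.40 rescaled (SE 0.42 and 0.44), so that its sign was set by the scaling. The high control value came from replicate 1, the library with the highest adipose sum. Without that library the difference of conidia against control was -1.01 and its sign was unchanged. Of 6 markers of patrolling monocytes limma called 1 higher and 4 lower in hyphae against control, beside 14.9% and 50.0% of all genes. After rescaling 2 were called higher and 3 lower, beside 30.0% and 29.3%. None was called by limma in conidia against control (3 at an unadjusted p under 0.05), beside 0.690% of all genes. Cx3cr1, the chemokine receptor of these cells, averaged 0.18 FPKM in hyphae, 3.43 in conidia and 5.08 in control. Ceacam1, the marker called higher as deposited, averaged 47.3, 43.1 and 27.9 in the same order. The summed FPKM of the 6 was 282 to 351 in hyphae, 431 to 440 in conidia and 247 to 349 in control libraries, and most of it was Ace (means of 263 in hyphae, 369 in conidia and 239 in control). The part of these cells in the values of Nr4a1 was not tested.

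Nr4a2 (Entrez 18227), or Nurr1, was lower after conidia as well. It stood at 6.60, 3.26 and 3.02 FPKM in hyphae replicates 1, 2 and 3, at 3.51, 3.6 and 4.06 in conidia replicates 1, 2 and 3, and at 14.4, 4.90 and 5.65 in control replicates 1, 2 and 3. The conidia libraries lay close together below all controls, and hyphae overlapped both groups. The log2 difference was -0.84 (SE 0.37; -0.75 rescaled) for conidia against control and -0.74 (SE 0.37; -0.38 rescaled) for hyphae against control. Control replicate 1 weighed on both, which were -0.41 and -0.31 without it. Unlike the other members of its family, Nr4a2 had about the same mean after both forms of the fungus, 4.29 ± 2.0 FPKM in hyphae and 3.72 ± 0.30 in conidia (SD, n = 3 each), a log2 difference of 0.10 (SE 0.37).

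Nr4a3 (Entrez 18124), or NOR-1, stood at 4.24, 6.83 and 5.78 FPKM in hyphae replicates 1, 2 and 3, at 4.44, 1.66 and 1.08 in conidia replicates 1, 2 and 3, and at 4.40, 1.45 and 2.66 in control replicates 1, 2 and 3. Its 2 highest libraries were hyphae replicates 2 and 3, and hyphae replicate 1 lay just below the highest library of either other group. The log2 difference was 0.84 (SE 0.39; 1.18 rescaled) for hyphae against control and 1.07 (SE 0.39; 1.33 rescaled) for hyphae against conidia. After rescaling all 3 hyphae libraries lay above the others. Conidia against control gave -0.23 (SE 0.39), and its sign turned positive without control replicate 1 or conidia replicate 3, at 0.06 without conidia replicate 3.

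The windows of the 3 NR4A paralogues are shown because they are alike in 1 feature. Each window holds 4 matches of TGACG (capitals, either strand), a number reached by 0.231% of all 32851 windows. The window of Nr4a1 is chr15:101266596-101266895 on the plus strand, that of Nr4a2 is chr2:57123954-57124253 on the minus strand, and that of Nr4a3 is chr4:48045055-48045354 on the plus strand (RefSeq, GRCm38.p6). The element AAAGGTCA, to which NR4A proteins bind as monomers, was in none of the windows found for the 10 genes and in 1.51% of all windows. A match is a description of letters only.
Nr4a1: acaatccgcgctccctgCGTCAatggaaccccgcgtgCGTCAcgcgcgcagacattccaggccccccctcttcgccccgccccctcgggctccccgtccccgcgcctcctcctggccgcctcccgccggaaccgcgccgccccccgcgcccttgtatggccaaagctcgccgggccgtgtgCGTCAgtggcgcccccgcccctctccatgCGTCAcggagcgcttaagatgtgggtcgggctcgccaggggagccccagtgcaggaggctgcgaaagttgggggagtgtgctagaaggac
Nr4a2: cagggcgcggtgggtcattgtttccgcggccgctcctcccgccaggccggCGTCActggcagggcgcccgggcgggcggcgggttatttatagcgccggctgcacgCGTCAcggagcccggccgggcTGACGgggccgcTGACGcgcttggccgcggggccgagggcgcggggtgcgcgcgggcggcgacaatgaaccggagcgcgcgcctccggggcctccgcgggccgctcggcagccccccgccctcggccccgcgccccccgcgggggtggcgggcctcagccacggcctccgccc
Nr4a3: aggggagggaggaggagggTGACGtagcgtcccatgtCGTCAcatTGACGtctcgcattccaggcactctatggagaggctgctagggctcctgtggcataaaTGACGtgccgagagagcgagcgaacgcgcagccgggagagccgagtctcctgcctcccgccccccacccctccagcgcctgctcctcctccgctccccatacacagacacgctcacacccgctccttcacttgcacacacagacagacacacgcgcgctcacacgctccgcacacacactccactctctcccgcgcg

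Ier2 (Entrez 15936), a nuclear protein and target of SRF, stood at 130.1, 221 and 364 FPKM in hyphae replicates 1, 2 and 3, at 69.9, 45.0 and 53.1 in conidia replicates 1, 2 and 3, and at 54.2, 57.2 and 39.0 in control replicates 1, 2 and 3. The hyphae libraries lay above all others, and conidia and control overlapped. The means were 238 ± 118 FPKM in hyphae, 56.0 ± 12.7 in conidia and 50.1 ± 9.77 in control (SD, n = 3 each). The log2 difference of hyphae against control was 2.12 (SE 0.34; 2.55 rescaled) and that of hyphae against conidia 1.97 (SE 0.34; 2.30 rescaled). Conidia against control gave 0.15 (SE 0.34), and -0.02 without either conidia replicate 1 or control replicate 3.

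Ier3 (Entrez 15937), or IEX-1, a regulator of cell survival that NF-kB is known to induce, was the most abundant of the 10 genes in each group. It stood at 355, 485 and 1053 FPKM in hyphae replicates 1, 2 and 3, at 326, 130.4 and 260.1 in conidia replicates 1, 2 and 3, and at 102, 132 and 115 in control replicates 1, 2 and 3. Hyphae lay above all other libraries. Conidia replicates 1 and 3 lay above the controls and conidia replicate 2 within them, in the same order as the neutrophil sums of these 3 libraries. The log2 difference was 2.28 (SE 0.42; 2.71 rescaled) for hyphae against control, 0.94 (SE 0.42; 1.04 rescaled) for conidia against control and 1.34 (SE 0.42; 1.67 rescaled) for hyphae against conidia. It was the only one of the 10 whose conidia mean was over 2 times its control mean with the control above 1 FPKM, at a ratio of 2.05. Without conidia replicate 2 the difference of conidia against control was 1.32.

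The promoter window of Ier3 is shown with its 1 match to the NF-kB consensus in capitals, 92 bases before the start site at chr17:35821463-35821762 on the plus strand (RefSeq, GRCm38.p6). That consensus was in 8.46% of all windows. It was also found in the windows of Egr4 and Nr4a1 and in 1 of the 5 windows of Egr2. The part of NF-kB in the levels of these genes was not tested. No match of TGACG or of a CArG box was in the Ier3 window.
Ier3: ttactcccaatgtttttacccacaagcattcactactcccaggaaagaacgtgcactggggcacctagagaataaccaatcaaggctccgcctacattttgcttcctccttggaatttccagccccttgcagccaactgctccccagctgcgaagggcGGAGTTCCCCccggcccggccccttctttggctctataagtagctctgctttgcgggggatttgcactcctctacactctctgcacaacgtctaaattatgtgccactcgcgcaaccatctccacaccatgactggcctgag

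Srf (Entrez 20807) encodes the factor through which growth and cytoskeletal signals reach this gene class. It had the narrowest spread of the 10 genes. It stood at 30.6, 29.2 and 28.5 FPKM in hyphae replicates 1, 2 and 3, at 18.0, 20.0 and 18.0 in conidia replicates 1, 2 and 3, and at 28.0, 26.6 and 23.4 in control replicates 1, 2 and 3. No 2 groups overlapped, with hyphae highest, control between and conidia lowest. The log2 difference was 0.18 (SE 0.09; 0.59 rescaled) for hyphae against control, -0.45 (SE 0.09; -0.36 rescaled) for conidia against control and 0.63 (SE 0.09; 0.95 rescaled) for hyphae against conidia. The difference between hyphae and control was over 2 times as large with rescaling as without it, while conidia lay lowest with either scaling.

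The Srf window, chr17:46556113-46556412 on the minus strand (RefSeq, GRCm38.p6), is shown for its 2 CArG boxes in capitals, 82 and 62 bases before the start site, through which SRF is known to act on its own gene. A CArG box was in 1.63% of all windows and 2 or more in 0.0183%. Of the other genes with a window, Egr2 had 1 box in 4 of its 5 windows, which overlap in part. Also searched on both strands were the EGR element GCGNGGGCG, found in Nr4a1, Nr4a2 and Srf and in 5.55% of all windows, and TATAAA, found in Nr4a2 and Srf and in 13.6% of all windows. A CArG box and TATAAA can share letters, as can TGACG read on either strand.
Srf: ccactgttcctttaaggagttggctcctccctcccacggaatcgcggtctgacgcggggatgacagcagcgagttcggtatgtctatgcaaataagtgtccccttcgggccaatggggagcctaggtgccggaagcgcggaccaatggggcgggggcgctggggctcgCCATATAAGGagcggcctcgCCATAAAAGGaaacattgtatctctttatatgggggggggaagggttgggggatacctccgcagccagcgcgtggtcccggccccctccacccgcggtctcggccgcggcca

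**Figure D2:**
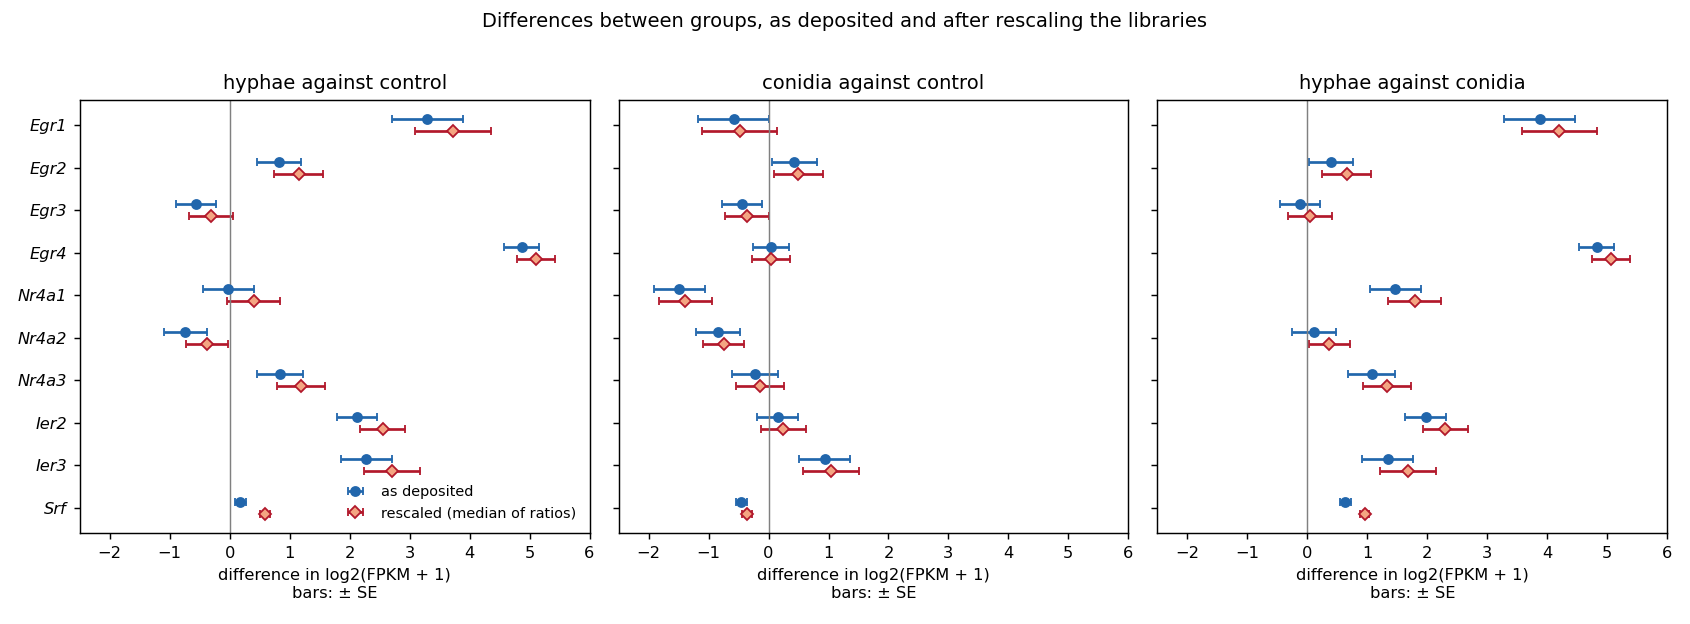
Differences in log2(FPKM + 1) with bars of ± SE for the 10 genes, in hyphae against control, conidia against control and hyphae against conidia, with circles as deposited and diamonds after rescaling. Against control, Egr1 and Egr4 stand at 3.29 and 4.87 in hyphae and at -0.58 and 0.04 in conidia, and Nr4a1 stands at -0.02 in hyphae and -1.49 in conidia.

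Within each group many of the 10 genes were high or low in the same library. In hyphae, 7 of the 10 were highest in replicate 3 and 7 lowest in replicate 1. In conidia, 8 were highest in replicate 1 and 6 lowest in replicate 2, the libraries with the highest and lowest neutrophil sums. In control, 7 were highest in replicate 1, where adipose and cardiac markers were highest. Srf and Nr4a2 went the other way in hyphae, with their highest values in replicate 1. In the 2 libraries rich in cardiac and adipose markers, Nr4a1 was the highest of its group, at 74.7 FPKM in hyphae replicate 3 and 128 in control replicate 1. Nr4a2 was 3.02 FPKM in hyphae replicate 3, the lowest of its group, and 14.4 in control replicate 1, the highest. What these markers contribute was not tested.

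**Figure D3:**
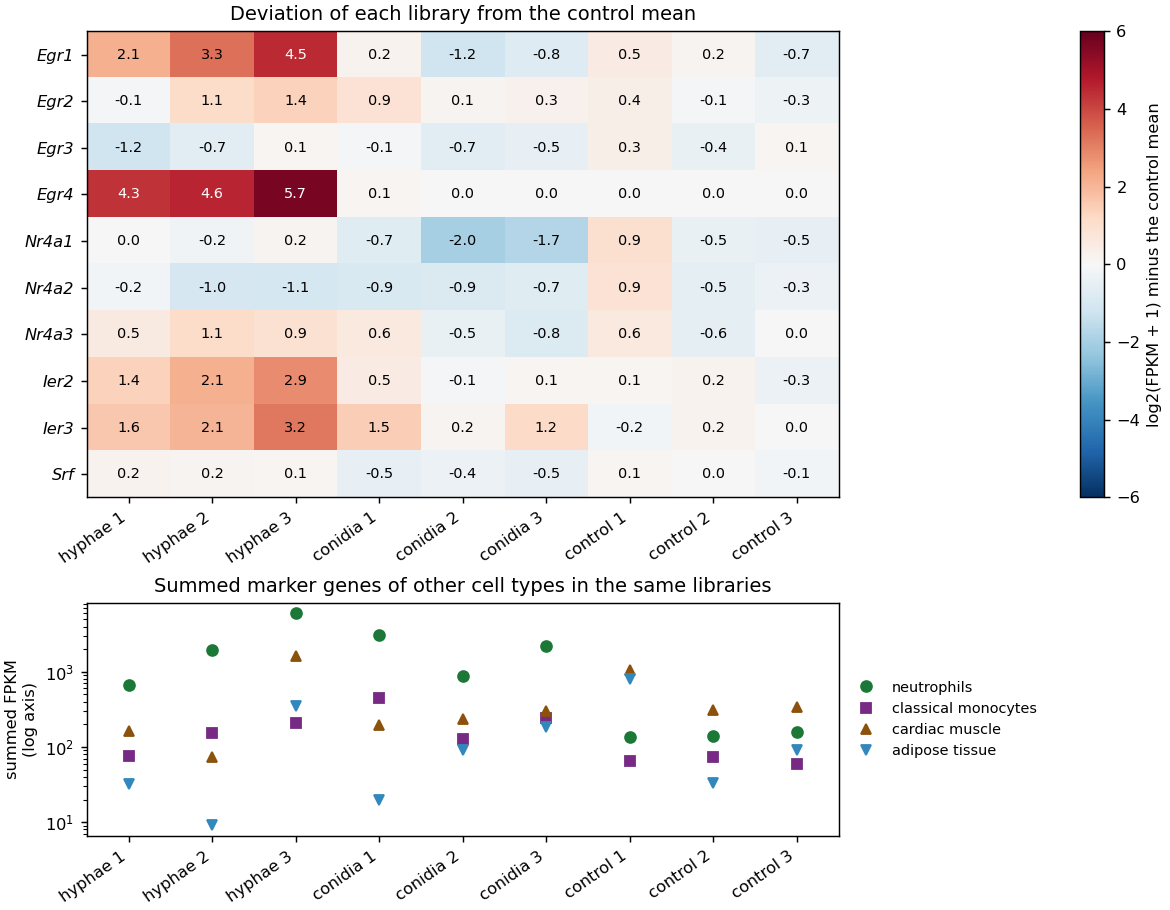
Top, deviation of each library from the control mean in log2(FPKM + 1) for the 10 genes, printed in each cell, with red for higher and blue for lower. Bottom, summed FPKM (log axis) of the markers of neutrophils, classical monocytes, cardiac muscle and adipose tissue in the same libraries, where the neutrophil sum is 5978 in hyphae replicate 3 and 157 or less in control libraries. The 6 classical monocyte markers went opposite ways. In hyphae against control limma called 1 higher (Cd14, means of 109 and 29.7 FPKM) and 2 lower (Ccr2, 1.16 and 12.5, and Fcgr1, 0.26 and 1.55). Rescaled, 2 were called higher and 2 lower.

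Likeness to other genes was measured as the root mean square difference, over the 9 libraries, between the log2(FPKM + 1) deviations from the control mean. Nearest to Egr1 were Fosb (0.45), an AP-1 subunit, Necab2 (0.47) and Zfp36 (0.65), which promotes decay of cytokine messengers. Nearest to Egr4 were Atf3 (0.52), a stress-induced factor, Apol8 (0.63) and Fosl1 (0.76), another AP-1 subunit. Nearest to Ier2 were Gem (0.16), a small GTPase, Sdc4 (0.17), a syndecan, and Fbxw10 (0.23), and nearest to Ier3 were Icam1 (0.21), the leukocyte adhesion ligand, Plaur (0.24), the urokinase receptor, and Tnfrsf12a (0.29).

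Nearest to Nr4a1 were Col15a1 (0.60), Fndc1 (0.61) and Immp2l (0.61). Nearest to Nr4a2 were Sbspon, Gpr155 and S100b (0.29 each), and nearest to Nr4a3 were H2-Q7 (0.33), Efhd1 (0.36) and Mbp (0.36). Nearest to Egr2 were Syk, Ppm1j and Pde1b (0.22 each), to Egr3 M1ap (0.23), Btg2 (0.25) and Trim55 (0.26), and to Srf Fam118a (0.08), Foxa1 (0.09) and Cdh1 (0.10). Among the 10 genes themselves, Ier2 and Ier3 were the nearest pair (0.54) and Egr4 and Nr4a2 the farthest (3.34).

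Genes outside the set were tested in the model fitted across all genes, by limma with Benjamini-Hochberg adjustment. Of 32 other immediate early genes 29 rose and 1 fell in hyphae against control, and after rescaling 29 rose and none fell. Their median log2 difference was 1.95 (2.33 rescaled), beside -0.37 for all genes (0.00 rescaled) and beside 14.9% of all genes called higher (30.0% rescaled). Arc, counted among the 29, reached 1 FPKM only in the hyphae libraries. It was therefore tested only through the group in which it was high, and its call supports nothing. The widest changes were in Fosl1 (4.44, adjusted p = 0.000333), Atf3 (4.37, adjusted p = 0.000106), Csrnp1 (3.85, adjusted p = 6e-05), a nuclear protein of the AXIN1 response, Fosb (3.50, adjusted p = 2e-04) and Pim1 (3.09, adjusted p = 0.000361), a survival kinase. The list was written with earlier results of these libraries known, so its direction is no independent evidence. Named after their values were seen, Klf2, the flow-induced endothelial factor, fell by 0.57 (adjusted p = 0.021; adjusted p = 0.542 rescaled), a call also lost without control replicate 1 or 3 or hyphae replicate 3, and Btg2 (-0.61, adjusted p = 0.0711) and Ier5l (-0.16, adjusted p = 0.379) were not called.

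After conidia, limma called none of the same 32 genes against control, beside 0.690% of all genes, so the 0 is no result about the list. In limma 11 of the 32 had an unadjusted p under 0.05, beside 2909 of all 13761 genes. The median of the 32 was 0.46, beside -0.07 for all genes. The same shares of all genes apply to the conidia counts of the lists that follow. Fosb stood at 44.6 ± 27.1 FPKM in hyphae, 1.12 ± 0.81 in conidia and 2.78 ± 1.45 in control (SD, n = 3 each). Its log2 difference of conidia against control was -0.84 (adjusted p = 0.288). In the same comparison Pim1 gave 1.69 (adjusted p = 0.0933), with means of 55.8 FPKM in conidia and 15.5 in control. Fosl1 gave 0.86 (adjusted p = 0.42), Csrnp1 0.82 (adjusted p = 0.222) and Atf3 0.14 (adjusted p = 0.877). In hyphae against conidia 28 of the 32 rose and 2 fell, beside 12.7% of all genes called higher and 42.5% lower. Of these 30 calls 8 were lost without at least 1 single library. Arc is among the 28 and the 8, since without any hyphae library it no longer passed the filter. Without conidia replicate 2, 6 of the 32 were called higher in conidia against control. In that run 641 of all 13685 genes tested were called higher, against 82 of 13761 with all libraries.

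Of 7 measured cofactors of EGR and SRF, 2 rose and 3 fell in hyphae against control, where 14.9% of all genes were called higher and 50.0% lower. The same shares apply to the lists of upstream genes, receptors and targets that follow, and a count near them is no result about a list. Nab2, the inducible corepressor of EGR proteins, fell to 7.17, 7.38 and 7.40 FPKM in hyphae replicates 1, 2 and 3, against 19.0, 18.3 and 16.7 in control replicates 1, 2 and 3, which is -1.19 on the log2 scale (SE 0.08, adjusted p = 2.43e-05; -0.79 rescaled). Its conidia libraries held 14.2, 15.2 and 14.5 FPKM. The groups did not overlap, and Nab2 was lowest in the group in which Egr1 was highest.

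Among the partners of SRF, Elk4, a ternary complex factor also called SAP1, rose to 9.89 ± 1.31 FPKM in hyphae, against 4.16 ± 0.20 in control (SD, n = 3 each), which is 1.07 on the log2 scale (SE 0.11, adjusted p = 0.000102; 1.45 rescaled). Elk3, a ternary complex factor that can repress and is abundant in endothelium, fell by 1.42 (adjusted p = 0.00018; -1.02 rescaled), and the coactivator gene Mkl1, which encodes MRTF-A, fell by 1.0 (adjusted p = 7.67e-05; -0.62 rescaled). Nab1 rose by 0.28 (adjusted p = 0.0461; 0.70 rescaled), a call lost without control replicate 1, 2 or 3, conidia replicate 2 or hyphae replicate 1 or 2. Elk1 (-0.13, adjusted p = 0.282) and Mkl2 (-0.10, adjusted p = 0.478) were not called as deposited. After rescaling both differences turned positive, and Elk1 was called higher (0.23, adjusted p = 0.0456) and Mkl2 was not (0.29, adjusted p = 0.0652). Myocd was below the filter. With conidia, limma called none of the 7 against control, with 1 at an unadjusted p under 0.05.

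Of 8 upstream kinases and signalling genes 6 fell in hyphae against control as deposited, beside 50.0% of all genes, while 1 rose and 1 fell after rescaling. Of these 6 calls 2 held without each single library, those of Creb1 and Map2k2. In limma Map2k2 gave -0.54 (adjusted p = 0.00164) as deposited and -0.13 (adjusted p = 0.289) rescaled. The 1 that rose after rescaling was Rhoa, at 0.26 (adjusted p = 0.113) as deposited and 0.69 (adjusted p = 0.00288) rescaled. Creb1, Map2k2 and Rhoa were named after their values were seen. Creb1, which encodes the CREB protein, fell to 5.09 ± 0.36 FPKM in hyphae, against 13.5 ± 0.90 in control (SD, n = 3 each), a log2 change of -1.25 (adjusted p = 5.62e-05; -0.87 rescaled). The retinoid X receptors, with which NR4A1 and NR4A2 form dimers, fell with the median gene, Rxra by 0.36 (adjusted p = 0.0226) and Rxrb by 0.36 (adjusted p = 0.00331), and neither was called after rescaling (0.05 for both). The call of Rxra was lost without control replicate 1 or 2 or hyphae replicate 2 or 3. Rxrg was below the filter. For conidia against control limma called none of the 8 kinases and signalling genes (1 at an unadjusted p under 0.05) and neither receptor (0 at an unadjusted p under 0.05).

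Of 7 measured targets ascribed to EGR1, 2 rose and 3 fell in hyphae against control, beside 14.9% of all genes called higher and 50.0% lower. F3, the tissue factor that starts coagulation, rose to 165, 172 and 200.2 FPKM in hyphae replicates 1, 2 and 3, against 61.2, 37.1 and 44.4 in control replicates 1, 2 and 3 (log2 change 1.92, SE 0.31, adjusted p = 0.000824; 2.34 rescaled). Icam1 rose by 2.11 (SE 0.37, adjusted p = 0.00109; 2.54 rescaled). Pdgfa and Pdgfb, growth factors for mesenchymal cells, fell by 0.68 (adjusted p = 0.0024) and 0.62 (adjusted p = 0.00884), and neither was called after rescaling, where their adjusted p was 0.0997 and 0.41. Nab2, described above, also fell. Tgfb1 (-0.01, adjusted p = 0.928; 0.41, adjusted p = 0.058 rescaled) was not called. After conidia 1 of the 7 fell against control, Pdgfa by 0.80 (adjusted p = 0.047), beside 0.0945% of all genes called lower. The call was lost after rescaling (adjusted p = 0.0584) and without control replicate 1, 2 or 3, conidia replicate 1 or 3 or hyphae replicate 2 or 3. In limma 6 of the 7 had an unadjusted p under 0.05. F3 (0.90, adjusted p = 0.16), Icam1 (1.07, adjusted p = 0.155) and Tgfb1 (0.41, adjusted p = 0.134) had positive differences without a call. Nab2 (-0.28, adjusted p = 0.12) and Pdgfb (-0.14, adjusted p = 0.633) had negative ones.

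Contractile and cytoskeletal targets of SRF gave a split that depended on the scaling. Of 15 measured, 2 rose and 5 fell in hyphae against control as deposited, and 4 rose and 1 fell after rescaling, where 30.0% of all genes were called higher and 29.3% lower. Actg1, a cytoplasmic actin, rose to 1482 ± 112 FPKM in hyphae, against 926 ± 24.8 in control (SD, n = 3 each), a log2 change of 0.68 (adjusted p = 0.00136; 1.11 rescaled). Cnn1, the calponin of smooth muscle, fell by 1.45 (adjusted p = 0.0105; -1.03 rescaled). Acta2 fell by 0.89 (adjusted p = 0.0241), Myh11 by 0.85 (adjusted p = 0.0224) and Tpm2 by 0.84 (adjusted p = 0.0208), and none of these 3 was called after rescaling. The summed FPKM of 6 smooth muscle markers, 3 of which are Acta2, Cnn1 and Myh11 themselves, was 118 to 172 in hyphae, 162 to 194 in conidia and 193 to 442 in control libraries, and its part in these falls was not tested. Without hyphae replicate 2, 2 of the 15 were called, and without control replicate 1, 3 of the 15. Conidia gave no limma call among the 15 against control, with 6 at an unadjusted p under 0.05. In hyphae against conidia 2 of the 15 rose as deposited and 9 rescaled, and 0 fell, beside 12.7% and 25.4% of all genes called higher.

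**Figure D4:**
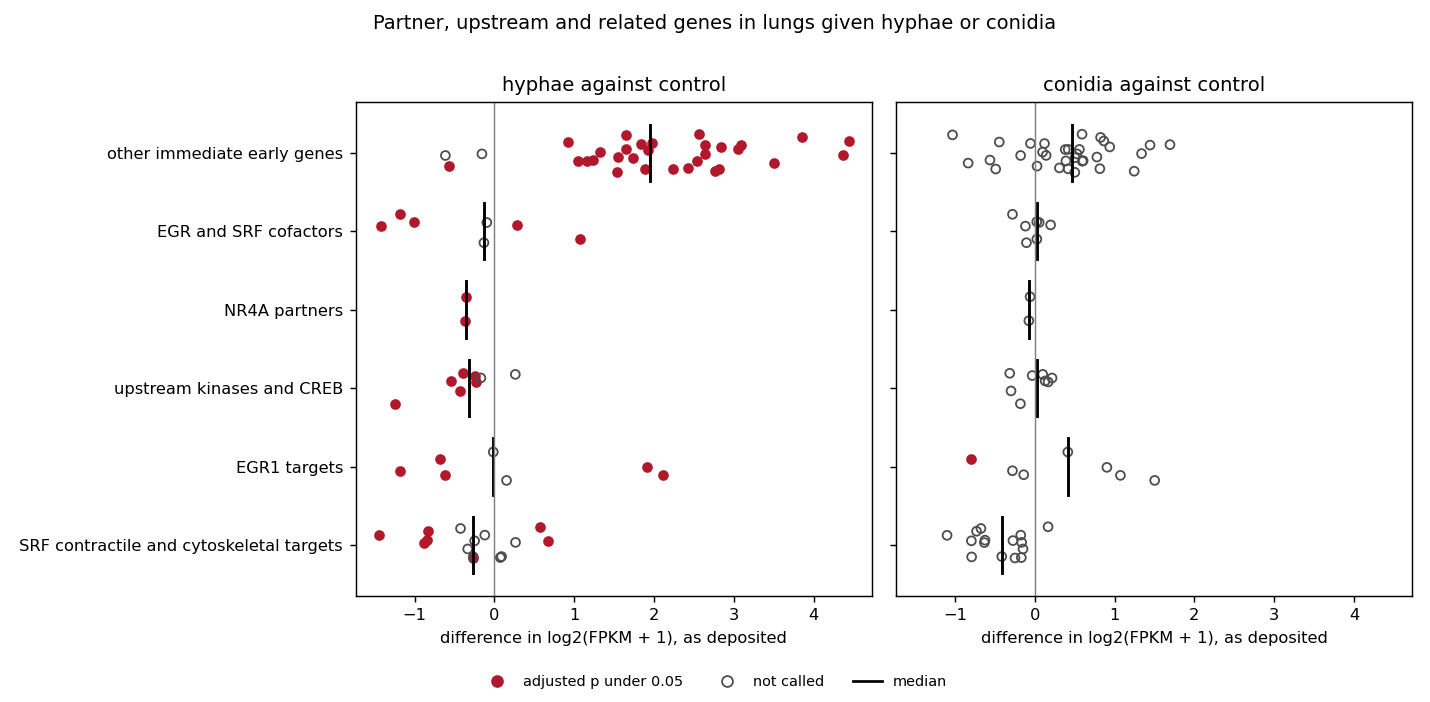
Differences in log2(FPKM + 1), as deposited, of the tested genes on 6 lists, in hyphae against control and conidia against control, with filled points at an adjusted p under 0.05, open points not called and a line at each list's median. Nearly all other immediate early genes lie to the right in hyphae (median 1.95) and around a median of 0.46 in conidia, while cofactors, partners and kinases lie on both sides of 0 or below it.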

How the data were processed

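Poly(A) RNA of whole lung was sequenced on the BGISEQ platform, per the labels' protocols. The authors deposited FPKM by Entrez gene, 1 file per library, per the file headers. The submitters' processing notes list HISAT, Bowtie2 and mm9, with no role or version for any of them. No source used here says which program computed FPKM. FPKM is scaled to each library's total, so a few abundant transcripts can shift all other genes. Depth is unknown.

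R 4.3.3 and limma 3.58.1 were used. A gene was tested if 3 or more of the 9 libraries reached 1 FPKM (13761 of 18984). All 9 libraries entered 1 limma-trend fit with robust moderation on log2(FPKM + 1), with a term per group. Tests were two-sided, adjusted by Benjamini-Hochberg over all genes tested, with calls at an adjusted p under 0.05. The fit was tested on simulated data.

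The 10 genes, the lists and the markers were chosen with earlier results of these data known. By rule the text names the 10 genes, all cofactors, NR4A partners and EGR1 targets. The values of 1 EGR1 target are not reported here. From the lists of other immediate early genes and SRF targets it names the 5 called genes with the largest absolute difference in hyphae against control, and any called in conidia. It also names the 3 genes nearest to each of the 10. Creb1, Map2k2, Rhoa, Klf2, Btg2, Ier5l, Arc and single cell type markers were named after their values were seen. Alternatives were 2 other scalings, a pseudocount of 0.1, 2 other filters, moderation that was not robust, a replicate block and leaving out each library.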

Additional observations from a re-analysis of the deposited data

How the results depend on the processing

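Of 465 recomputed differences of the 10 genes, 460 moved by less than the residual SD of the gene. The other 5 were those of Egr4 with hyphae under a pseudocount of 0.1 (8.03 against control, 7.73 against conidia) and those of Srf after rescaling (-0.36, 0.59 and 0.95). No called difference changed sign. The signs of small differences did change for Nr4a1 in hyphae against control (-0.27 to 0.45), Egr3 in hyphae against conidia (-0.48 to 0.18), Nr4a2 in hyphae against conidia (-0.19 to 0.37), and Nr4a3 (-0.63 to 0.06) and Ier2 (-0.02 to 0.30) in conidia against control. Without a hyphae library Egr4 no longer passed the filter.

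The number of genes called in conidia against control, 95, was 47 after median-of-ratios rescaling, 173 after rescaling to equal sums, 43 without a filter and 57 with the replicate block, and 0 to 1503 without single libraries (1503 when conidia replicate 2 was left out, 260 for hyphae replicate 1, 7 for hyphae replicate 2 and 1 for conidia replicate 1). Limma called 0 genes when any one control library, or conidia replicate 3, was left out, with 1982, 1971, 2601 and 1862 genes having unadjusted p-values below 0.05. Leaving out single libraries gave 0 to 6 other immediate early genes and 0 to 1 SRF targets for conidia. For SRF targets it gave 2 to 8 in hyphae against control and 1 to 3 in hyphae against conidia, where rescaling gave 9. These 9 were all higher in hyphae, beside 25.4% of all genes called higher after rescaling. The other immediate early genes numbered 27 to 30 in hyphae against control over all alternatives run. Deviations of same-numbered libraries correlated at -0.31 to 0.43, and those of libraries with other numbers at -0.54 to 0.30. These ranges overlap, so they cannot decide whether replicate numbers pair the samples. The block changed no call of the 10 genes. Depth is unknown, and values near 0 are the least precise.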
